A study of Mus musculus with 10 samples.

Results

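The clustered protocadherins are cell-surface proteins of the cadherin superfamily encoded by 3 neighbouring gene clusters, alpha, beta and gamma. They were chosen by symbol, as every protein-coding gene whose mouse symbol is that of an alpha, beta or gamma isoform (*Pcdha1* and upward, *Pcdhac*, *Pcdhb*, *Pcdhga*, *Pcdhgb* and *Pcdhgc*). In GENCODE M21, 57 protein-coding genes met this rule, and 56 of them were among the 18444 genes of the deposited table: 14 alpha, 21 beta and 21 gamma genes. *Pcdhb1* had no row and was not analysed here. Whole-brain messenger RNA was compared between 5 male mice heterozygous for *Arid1b* (HT) and 5 male wild-type mice (WT), with 1 library per mouse. All were C57BL/6N and were sampled at postnatal day 3 (P3). *Arid1b* encodes a subunit of the BAF chromatin-remodelling complex, and per the study's methods exon 5 of the mutant allele was targeted with Cas9 nickase, which left a deletion with a short insertion in its place, carried in the germline. The values are normalised read counts, and since the tissue is bulk, fewer cells of a type and less RNA per cell cannot be told apart.

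In neurons, single promoters of these clusters are switched on in different combinations in different cells, and the proteins bind their own kind on the opposing membrane. This gives a neuron a surface identity that is used in dendritic self-avoidance, axon arborisation and the survival of interneurons. Each alpha and gamma messenger RNA joins 1 variable exon, which encodes the extracellular part, to constant exons shared by its whole cluster, while each beta gene is a single unit without constant exons. Binding of CTCF and cohesin at promoters and distal enhancers sets which promoters are active, and DNA methylation by *Dnmt3b* and silencing by *Smchd1* restrict the choice. The C-type genes at the ends of the alpha and gamma clusters (*Pcdhac1*, *Pcdhac2*, *Pcdhgc3*, *Pcdhgc4* and *Pcdhgc5*) are transcribed more evenly across cells than the others.

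On the GRCm38 build the genes lie on chromosome 18 within 911690 bases. The alpha genes span 36930184 to 37187661, the beta genes 37264938 to 37524479 and the gamma genes 37661793 to 37841873. The shared constant exons make up 2860 bases of an alpha transcript, 48.6% to 54.9% of its length, and 2116 or 2119 bases of a gamma transcript, 41.7% to 45.5%. Reads from these exons cannot by themselves name the isoform they came from. Of all stretches of 31 bases in the transcripts of a gene, a median of 63.5% in alpha, 46.1% in gamma and 12.1% in beta also occurred in another gene. The level of a single alpha or gamma isoform is therefore more uncertain than the sum of its cluster. The annotation gives 2 gene identifiers the symbol *Pcdha11*, and the one that RefSeq places as *Pcdha10* is called *Pcdha10* here.

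*Arid1b* itself, the gene that the genotype labels name, was lower in every HT library than in every WT library. Its level was 2372, 2230, 2253, 1505 and 2142 in HT 1 to 5 and 3386, 3155, 3597, 3429 and 3108 in WT 1 to 5. The 2 groups did not overlap, and HT reached 63.0% of WT on average (log2 difference -0.68, SE 0.11, exact permutation p = 0.00794, the smallest that 5 against 5 libraries can give). Over all genes its limma adjusted p was 0.39, and it was 2.5e-04 without HT 4, the library with the lowest *Arid1b* level.

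HT 4 stood apart from the other 9 libraries. Its median deviation from the 10-library mean of each gene was 0.27 (log2) for the 10% of genes with the shortest transcripts and -0.33 for the 10% with the longest, against -0.10 to 0.06 and -0.05 to 0.12 in the rest. Its total was 27.2 M (M, 1000000), against 28.2 M to 29.03 M. The neuronal markers were present at high level in all 10 libraries, with summed values of 207590 (HT 4) to 243430. They were split in HT 4. It was the lowest of the 10 libraries at *Dcx* (18795), *Map2* (32948), *Syt1* and *Rbfox3*, and the highest at *Stmn2*, *Tubb3* and *Gap43*. The neuronal sum of HT 4 lay below the WT range (225180 to 234220). Its sums lay above that range for astrocytes and radial glia (52679 against 42478 to 49917) and the oligodendrocyte lineage (16962 against 12056 to 14068). Of 9 marker lists, 8 overlapped between HT and WT in their summed levels. The exception was the choroid plexus list, at 7084 to 10007 in HT and 10581 to 14272 in WT, of which *Ttr* is the largest part and none of whose 8 markers was at 0. Of these markers only *Ttr* had groups without overlap, against 0.629% of all genes tested, and *Prlr* had a higher mean in HT (156 against 124). No value of the protocadherins was tested against the difference in this list. Results that rest on HT 4 are given with and without it.

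The isoforms were unequally expressed in the P3 brain, and 3 of the 5 C-type genes had the highest levels per kilobase of alpha and gamma. Together the 56 genes took 0.152% ± 0.0034 of the total of a library (SD, n = 10). The gamma cluster supplied 60.8% ± 1.6 of their summed value, alpha 27.1% ± 0.84 and beta 12.2% ± 0.86. In values per kilobase of the longest transcript, the scale used here for comparing genes, *Pcdhgc4* had the highest level at 1648 ± 355 (SD, n = 10), followed by *Pcdhgc3* at 1088 ± 119 and *Pcdhac2* at 484 ± 54.4. The other C-types, *Pcdhac1* (40.7) and *Pcdhgc5* (105), lay below the median gene of their clusters. The median gene stood at 149 per kilobase in alpha, 44.3 in beta and 141 in gamma. The lowest gene of all was *Pcdha8*, at 7.22 per kilobase.

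**Figure D1:**
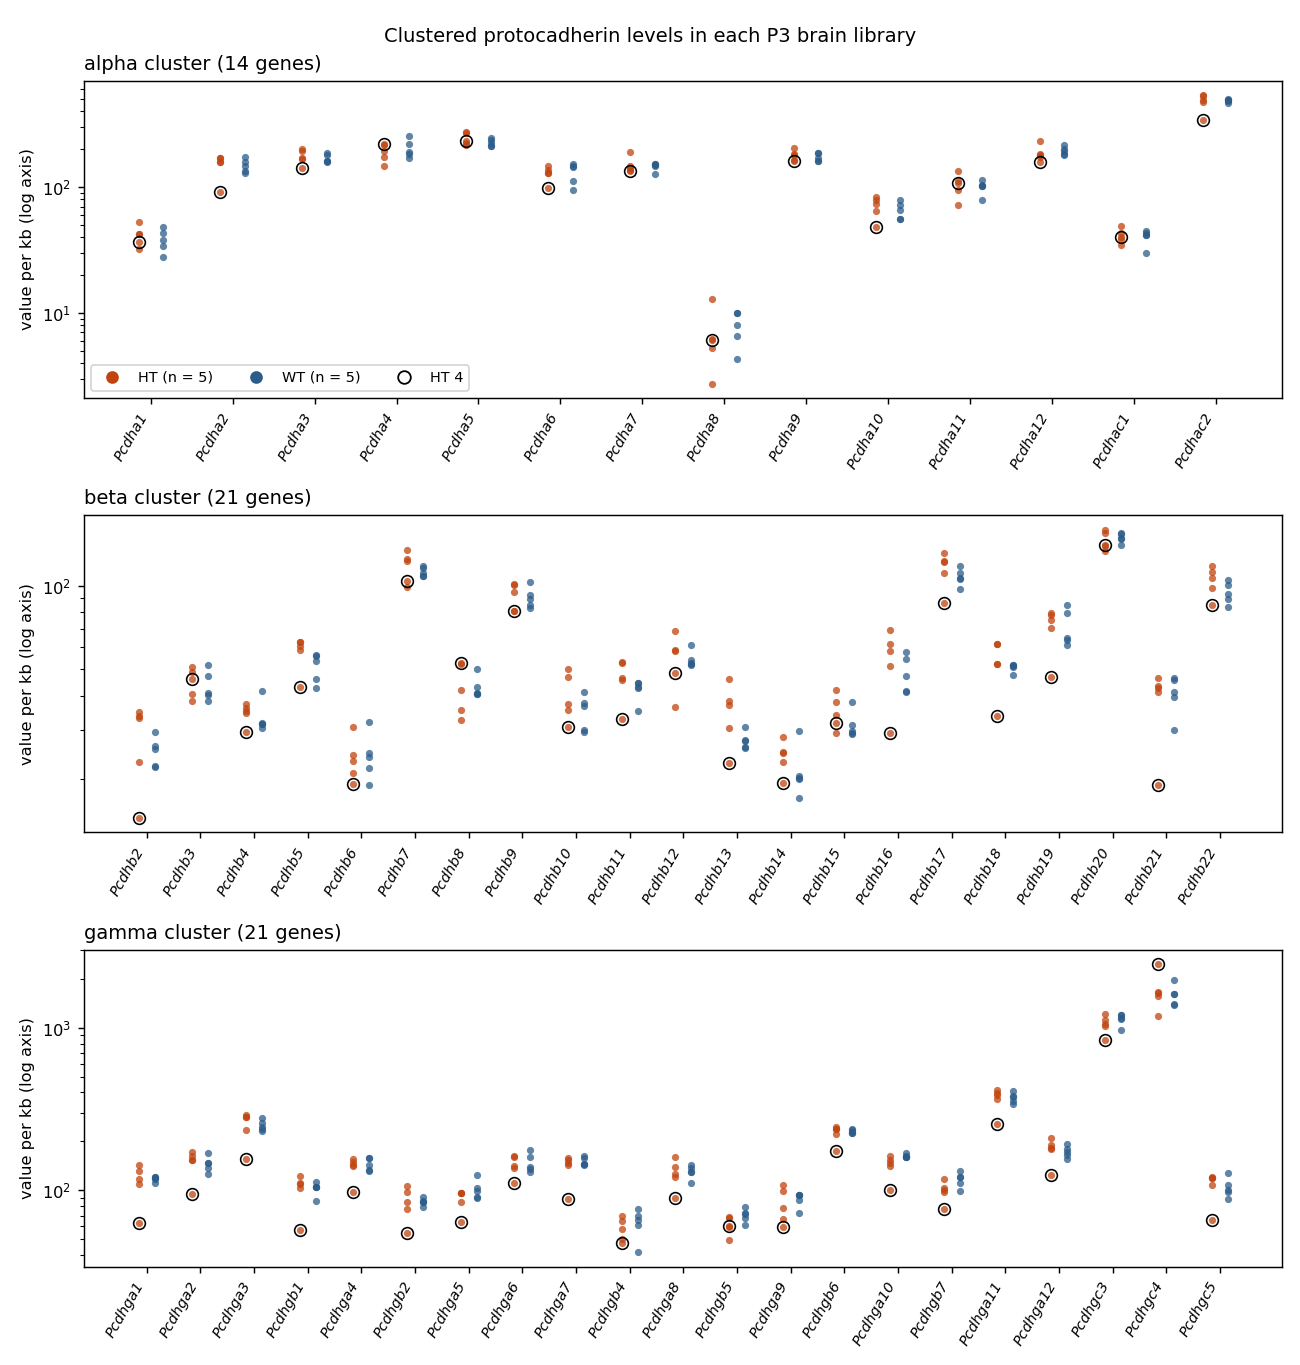
Level of each clustered protocadherin in each library, as the normalised value per kilobase of the longest transcript on a log axis, with genes in chromosomal order and 1 point per library (HT to the left, WT to the right, HT 4 ringed). HT and WT points overlap at every gene, Pcdhgc4, Pcdhgc3 and Pcdhac2 lie highest, and HT 4 is the lowest library at 18 of the 21 gamma genes but the highest at Pcdhgc4.

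Among the alternate alpha genes, *Pcdha1* to *Pcdha12*, levels per kilobase ranged over 32.6-fold from *Pcdha8* to *Pcdha5*, and over 6.45-fold in beta and 6.08-fold among the gamma A and B genes. The place of a gene along its cluster had little relation to its level, with a Spearman correlation of -0.06 over the 12 alternate alpha genes, 0.36 over the 21 beta genes and 0.18 over the 18 gamma A and B genes. These coefficients describe genes of the same 10 libraries, which are not independent replicates. In beta the highest levels per kilobase were those of *Pcdhb20* (147), *Pcdhb7* (115) and *Pcdhb17* (111). The largest share of the beta sum was held by *Pcdhb22*, at 12.5% ± 0.80 (SD, n = 10).

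No clustered protocadherin differed between HT and WT past the threshold. With limma over 17020 genes, 0 of 56 reached an adjusted p under 0.05 (lowest adjusted p = 1.00), and 0.0% of all genes tested did. At an unadjusted p under 0.05, 1 of 56 was called, *Pcdhgb7*, against 3.41% of all genes tested. The HT and WT libraries overlapped at every one of the 56 genes, while 0.629% of all genes tested had groups that did not overlap. The median log2 difference over the 56 genes was -0.01, as it was over all genes tested. Of the 56 genes, 25 (44.6%) were higher and 31 lower in HT, and 46.4% of all genes tested were higher. The unadjusted 95% confidence interval of the difference lay within 1.5-fold in either direction for 53 of the 56 genes, and within 2-fold for 55. Of the 17020 genes tested, 13536 and 15834 had such intervals. The exception at 2-fold was *Pcdha8*, the gene with the lowest level, with an interval from -1.08 to 0.44. These intervals leave out the uncertainty of dividing reads between isoforms, so they bound the estimated values and not the isoforms themselves.

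The summed level of each cluster was also close in the 2 groups. The alpha sum was 11938, 12490, 11692, 9898 and 12452 in HT 1 to 5 and 11413, 11897, 11829, 11843 and 11386 in WT 1 to 5. The log2 difference, HT minus WT, was -0.0023 (SE 0.063). HT 4 was the lowest of all libraries, and 3 HT libraries lay above every WT library. The beta sum was 5851, 5724, 5292, 4268 and 5797 in HT and 4742, 4925, 5440, 5366 and 5179 in WT, a difference of 0.063 (SE 0.093). Here too HT 4 was the lowest library and 3 HT libraries lay above every WT library. The gamma sum was 25200, 26187, 26500, 25054 and 27063 in HT and 26357, 26528, 26096, 25932 and 26916 in WT, a difference of -0.021 (SE 0.023). All 3 clusters together differed by -0.0047 (SE 0.036), with an HT mean of 43081 ± 2334 and a WT mean of 43170 ± 388 (SD, n = 5 each). Without HT 4 the differences were 0.057 in alpha, 0.14 in beta, -0.0074 in gamma and 0.029 over all 3. The differences between HT and WT in these sums over chosen genes were given no test.

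**Figure D2:**
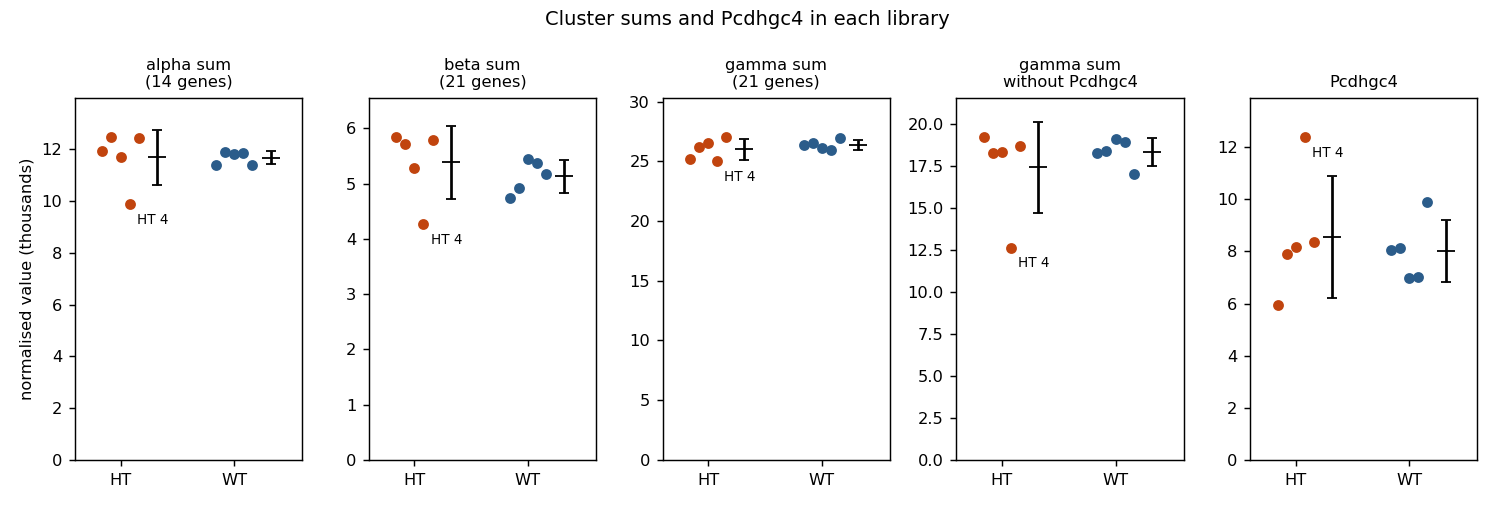
Summed normalised value of the alpha, beta and gamma genes, of the gamma genes without Pcdhgc4, and of Pcdhgc4 alone, in units of 1000, with 1 point per library and the mean ± SD of each group (n = 5) beside it. The groups overlap in every panel, and HT 4 lies lowest in the first 4 and highest in the last.

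HT 4 lay farthest from the other HT libraries. It was the lowest of the 10 libraries at 32 of 56 clustered protocadherins (57.1%), compared with 27.5% of all genes tested, and at 18 of 21 gamma genes. Its median deviation from the mean of the other 9 libraries was -0.14 in alpha, -0.30 in beta and -0.58 in gamma, and ran from -1.12 at *Pcdhb21* to 0.68 at *Pcdhgc4*. The spread between mice of 1 group was accordingly wide, with a median residual SD of 0.23 (log2) over the 56 genes against 0.16 over all genes tested. Without HT 4 the 2 medians were 0.15 and 0.12.

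Without HT 4 the differences moved upward in all 3 clusters. The count of genes higher in HT went from 8 to 11 of 14 in alpha, from 15 to 18 of 21 in beta and from 2 to 13 of 21 in gamma. Over all genes tested the share higher in HT went from 46.4% to 49.6%. The median difference over all 56 genes became 0.08, against -0.0009 over all genes tested. The beta sum was then 5666 ± 254 in 4 HT libraries and 5130 ± 294 in 5 WT libraries, a log2 difference of 0.14 (SE 0.050), with HT 3 still inside the WT range. At an unadjusted p under 0.05, 6 of 56 genes were higher in HT, against 4.69% of all genes tested, and all 6 were beta genes: *Pcdhb5*, *Pcdhb11*, *Pcdhb13*, *Pcdhb16*, *Pcdhb17* and *Pcdhb22*. None passed adjustment (lowest adjusted p = 0.45, *Pcdhb13*), while 0.0118% of all genes tested did. *Pcdhb5*, *Pcdhb11* and *Pcdhb16* are named because of this result. The beta genes varied together across these 9 libraries (median pairwise Pearson correlation 0.28), so the 6 are not independent calls. In the same setting 5 of 12 protocadherins outside the clusters were also higher in HT at that level. Whether beta differed from the other clusters was not tested.

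**Figure D3:**
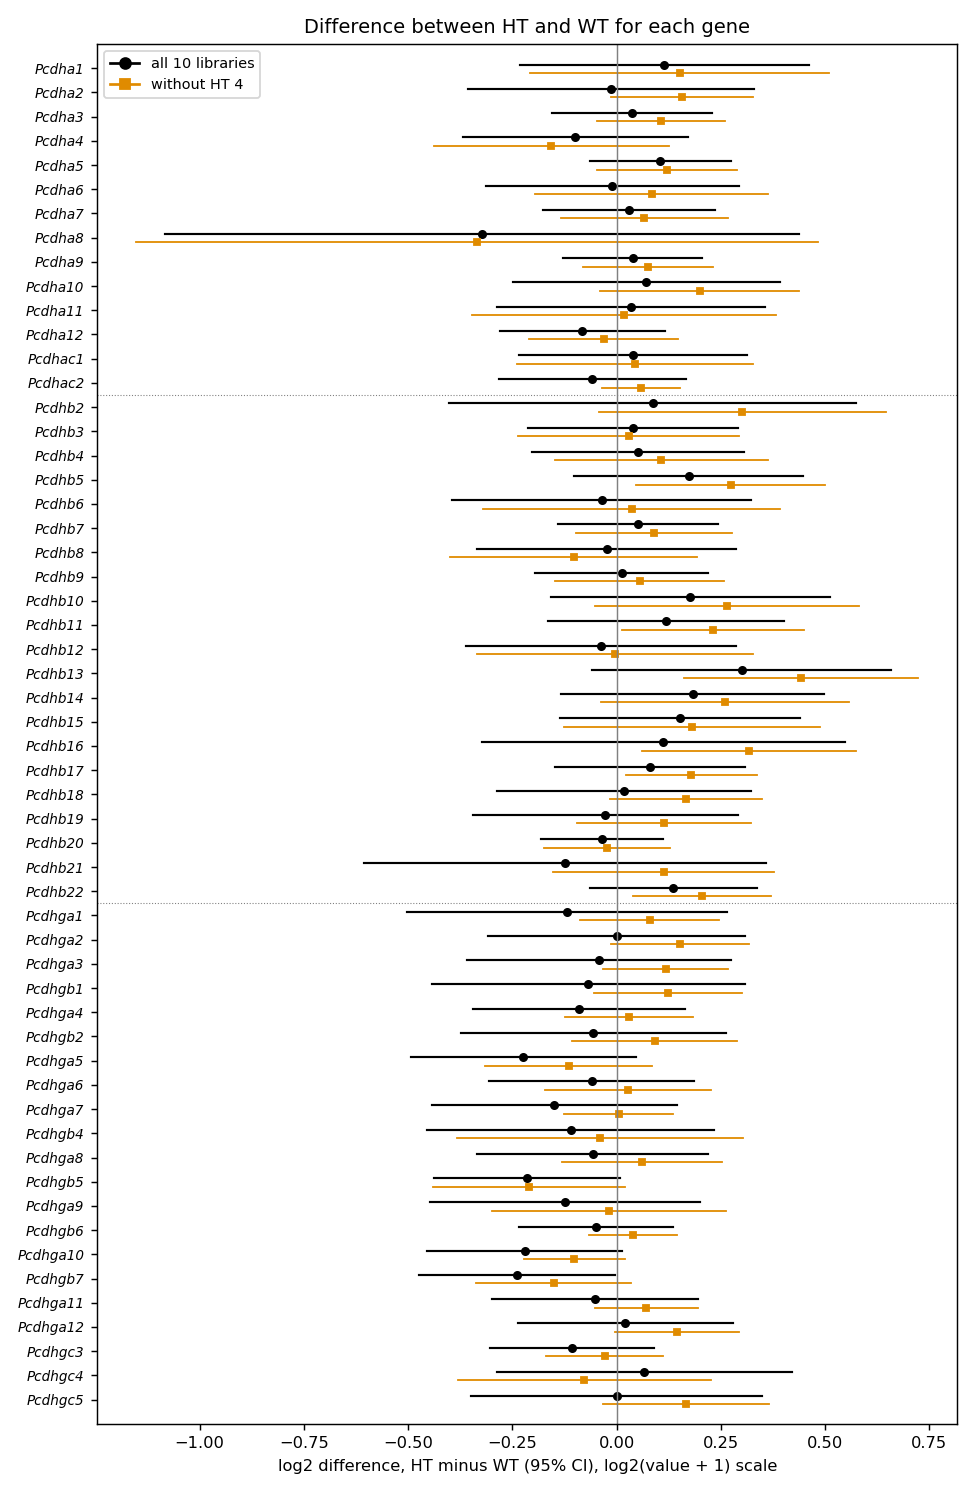
Difference between HT and WT on the log2(value + 1) scale with its unadjusted 95% confidence interval for each of the 56 genes, from all 10 libraries (black circles) and without HT 4 (orange squares), dotted lines parting alpha, beta and gamma. With all libraries only the interval of Pcdhgb7 leaves out 0, and without HT 4 only those of 6 beta genes do.

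Within the alpha cluster, the C-type gene *Pcdhac2*, which serotonergic axons use to spread evenly over their targets, took 24.3% ± 1.7 of the alpha sum (SD, n = 10). Its level was 3158, 2824, 2931, 2006 and 3127 in HT and 2873, 2930, 2976, 2900 and 2764 in WT. The WT values were tight and HT 4 was far below them, and the difference was -0.06 (SE 0.10). It was 0.06 without HT 4. The other alpha C-type, *Pcdhac1*, was more than 10 times lower per kilobase (40.7 against 484), with 188 to 266 in HT and 162 to 242 in WT and a difference of 0.04 (SE 0.13).

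The alternate alpha genes encode variable isoforms that most neurons express singly or in small number. *Pcdha5* had the highest level among them, at 1171, 1408, 1135, 1213 and 1441 in HT and 1100, 1243, 1166, 1108 and 1288 in WT, and the groups overlapped (difference 0.10, SE 0.078). *Pcdha4* ranged from 798 to 1188 in HT and from 916 to 1359 in WT (difference -0.10, SE 0.12), with a difference of -0.16 without HT 4. Of its stretches of 31 bases 90.7% also occur in another gene, the largest share of all alpha genes. *Pcdha8* ranged from 14.7 to 69.0 in HT and from 23.1 to 53.6 in WT, with the widest spread of any of the 56 genes (coefficient of variation 42.1% over 10 libraries).

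The beta genes differ from the others in that their transcripts share little sequence, so that their values rest mostly on reads of their own. *Pcdhb13* had the largest positive difference of all 56 genes. Its level was 138, 171, 142, 84.4 and 113 in HT and 102, 96.2, 103, 114 and 97.0 in WT. The difference was 0.30 (SE 0.17, exact permutation p = 0.14), with 3 HT libraries above every WT library and HT 4 below all of them. *Pcdhb22*, the beta gene with the highest total value, was at 743, 702, 646, 565 and 779 in HT and 553, 615, 591, 666 and 691 in WT (difference 0.14, SE 0.092, and 0.20 without HT 4). HT 1, HT 2 and HT 5 exceeded every WT library. *Pcdhb17* ranged from 402 to 613 in HT and from 452 to 548 in WT (difference 0.08, SE 0.10, and 0.18 without HT 4). *Pcdhb20* was the steadiest beta gene, with a coefficient of variation of 5.90% over the 10 libraries and a difference of -0.04 (SE 0.068), which was -0.02 without HT 4. *Pcdhb2* had the lowest mean of the beta genes, with 40.7 to 98.6 in HT and 61.9 to 83.0 in WT and a difference of 0.09, which was 0.30 without HT 4.

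The 3 smallest p-values of the family were found in the gamma cluster, all with lower means in HT. *Pcdhgb7* was at 555, 484, 460, 363 and 476 in HT and 571, 520, 568, 622 and 467 in WT. HT 1, HT 2 and HT 5 lay inside the WT range, and the difference was -0.24 (SE 0.11, limma p = 0.047, adjusted p = 1.00, exact permutation p = 0.079). Without HT 4 it was -0.15. *Pcdhgb5* was at 231, 320, 315, 280 and 277 in HT and 334, 371, 316, 286 and 338 in WT (difference -0.21, SE 0.10, exact permutation p = 0.056), and its difference was the same, -0.21, without HT 4. *Pcdhga10* had tight WT values, 758, 764, 764, 800 and 758, against 769, 732, 698, 475 and 670 in HT. Only HT 1 reached the WT range (difference -0.22, SE 0.11, exact permutation p = 0.040), and the difference fell in size to -0.10 without HT 4. *Pcdhga5* ranged from 297 to 450 in HT and from 419 to 583 in WT (difference -0.22, SE 0.12, exact permutation p = 0.15), and -0.11 without HT 4. *Pcdhga11*, the highest of the gamma A and B genes, was at 1213 (HT 4) to 1981 in HT and 1615 to 1951 in WT, and *Pcdhgb4*, the lowest, at 220 to 326 and 194 to 359. Their differences were -0.05 and -0.11, and 0.07 and -0.04 without HT 4.

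The gamma C-types took 53.1% ± 5.1 of the gamma sum (SD, n = 10). In HT 4 the share was 66.5%, and in the other libraries it lay between 48.4% and 55.1%. *Pcdhgc3*, a broadly expressed isoform that binds Axin1 and promotes dendritic branching, was at 5677, 4825, 4914, 3935 and 5265 in HT and 5308, 5354, 5582, 5628 and 4524 in WT. HT 4 and WT 5 were the lowest library of their groups, and the difference was -0.11 (SE 0.091). It was -0.03 without HT 4. *Pcdhgc5*, an isoform that increases later in postnatal life and binds GABA-A receptors, was at 562, 569, 512, 310 and 567 in HT and 514, 607, 460, 479 and 420 in WT. The difference was -0.00020 (SE 0.16), and 0.17 without HT 4.

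*Pcdhgc4* ran against the rest of its cluster. This isoform is the one that developing cortical interneurons and spinal neurons need to survive. Its level was 5948, 7900, 8172, 12403 and 8351 in HT 1 to 5 and 8059, 8120, 6969, 7004 and 9894 in WT 1 to 5. HT 4 and WT 5, which were low at *Pcdhgc3*, were the highest libraries of their groups here, and HT 1 was the lowest. The groups overlapped, with a difference of 0.07 (SE 0.16), which was -0.08 without HT 4. As a share of the gamma sum, *Pcdhgc4* made up 49.5% in HT 4 and 23.6% to 36.8% in the other 9 libraries.

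Across the 10 libraries, *Pcdhgc4* was higher where the other 20 gamma genes were lower. The sum of the others was 19252, 18287, 18328, 12650 and 18711 in HT and 18298, 18408, 19127, 18927 and 17023 in WT. Its log2 value and that of *Pcdhgc4* had a Pearson correlation of -0.88 (n = 10, permutation p = 4e-05, adjusted p = 0.0022 over the 56 genes each set against the rest of its cluster) and a Spearman correlation of -0.77 (permutation p = 0.012, adjusted p = 0.087). Without the 2 libraries farthest from the median, HT 4 and WT 5, Pearson's r was -0.86. With the mean of each group taken out, r was also -0.88, and no coefficient was computed over the 5 libraries of 1 group. The total of the cluster, by contrast, ran only from 25054 to 27063. This relation was looked at after the values had been seen. Reads of the constant exons are divided between the gamma genes by estimate, so *Pcdhgc4* and the others were not measured independently. The permutation p-values do not allow for this. With 10 libraries, 2 of 21 gamma genes had a negative correlation with the rest of the cluster, *Pcdhgc4* and *Pcdhgc3*, and of these *Pcdhgc4* passed adjustment. That count rests on HT 4: without it 18 of 21 were negative, with a median r of -0.38 in place of 0.31, where the rest of the cluster includes *Pcdhgc4* for every other gene. For *Pcdhgc4* itself r was -0.89 without HT 4. In beta 1 of 21 genes and in alpha 2 of 14 were negative with 10 libraries, none of which passed, and 2 and 4 without HT 4.

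**Figure D4:**
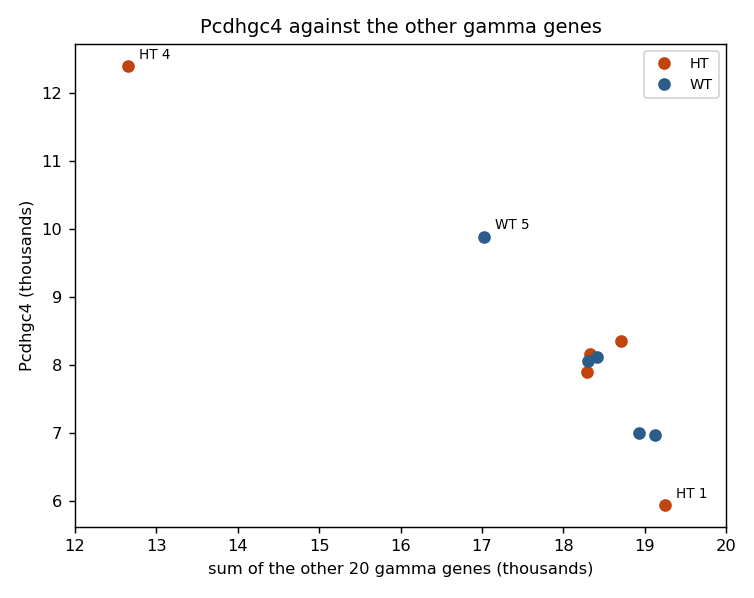
Normalised value of Pcdhgc4 against the sum of the other 20 gamma genes, both in units of 1000, with 1 point per library. HT 4 (12650 and 12403) and WT 5 (17023 and 9894) lie at the upper left and HT 1 (19252 and 5948) at the lower right, with HT and WT libraries along the same slope.

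*Pcdhgc4* also moved with the transcript-length deviation of the libraries. These relations, too, were computed after the values had been seen. For the 10% of genes with transcripts of up to 1330 bases, the median deviation of the library was highest in HT 4 (0.27), next highest in WT 5 (0.059) and lowest in HT 1 (-0.10), the order of these libraries at *Pcdhgc4*. Over the 10 libraries, *Pcdhgc4* had a Pearson correlation with that deviation of 0.94 (permutation p = 1e-05, the smallest that 100000 resamples can give, adjusted p = 5e-05 over 5 relations) and a Spearman correlation of 0.90 (permutation p = 0.00072, adjusted p = 0.0036). Pearson's r was 0.89 without HT 4 and HT 1, the 2 farthest libraries. For the sum of the other gamma genes the Pearson correlation was -0.96 (permutation p = 0.00018, adjusted p = 0.00045), the Spearman correlation -0.82 (permutation p = 0.0058, adjusted p = 0.014) and r without the 2 libraries -0.79. The beta sum had -0.84 (permutation p = 0.0043, adjusted p = 0.0072) and -0.79 (permutation p = 0.0089, adjusted p = 0.015), and the alpha sum -0.86 (permutation p = 0.018, adjusted p = 0.022) and -0.58 (permutation p = 0.088, adjusted p = 0.11), but these fell to -0.47 and -0.40 without HT 1 and HT 4 and so rest on those libraries. The whole gamma sum had -0.22 (permutation p = 0.53, adjusted p = 0.53) and 0.35 (permutation p = 0.33, adjusted p = 0.33), and the former became 0.77 without HT 1 and HT 4. One annotated *Pcdhgc4* transcript has 2272 bases, of which 93.3% lie in the constant exons that all gamma genes share, whereas the longest has 5024 bases with 42.2%. The table gives 1 value per gene, so that the division of reads between these transcripts was not tested. After the trend of each library with transcript length had been taken out, the correlation of *Pcdhgc4* with the other gamma genes was -0.88. That trend used the longest transcript of each gene. It therefore could not show whether the shorter *Pcdhgc4* transcript played a part.

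Genes of a cluster varied together to different degrees. The median Pearson correlation over all pairs of genes, across the 10 libraries they share, was 0.16 in alpha, 0.41 in beta and 0.69 in gamma. Without HT 4 it was 0.09, 0.28 and 0.05. The high gamma value thus rested on HT 4. Without it the beta genes had the highest median of the 3 clusters, with 77.6% of 210 pairs positive.

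The regulators of promoter choice gave no call. Of 20 genes of CTCF, cohesin, DNA methylation and silencing, 0 passed adjustment and 1 had an unadjusted p under 0.05, against 3.41% of all genes tested. The median difference was -0.04, against -0.01 over all genes tested. In HT 16 of 20 were lower and 4 higher, where 46.4% of all genes tested were higher. Without HT 4 the median turned to 0.04, with 14 of 20 higher, against 49.6% of all genes tested. The 1 gene was *Dnmt3b*, a DNA methyltransferase that methylates clustered protocadherin promoters in the embryo. It was at 112, 114, 103, 92.1 and 108 in HT and 77.4, 85.1, 99.1, 84.4 and 83.3 in WT. All HT libraries but HT 4 lay above all WT libraries (difference 0.30, SE 0.11, exact permutation p = 0.016, limma adjusted p = 1.00). *Ctcf*, the insulator protein at the promoters, had a difference of -0.08 (SE 0.055), the cohesin subunit *Rad21* -0.05 (SE 0.041) and the silencer *Smchd1* -0.06 (SE 0.057). Without HT 4 these were -0.05, -0.04 and -0.04. *Dnmt3a*, the de novo methyltransferase with the highest total value in the list, had 0.03 (SE 0.047), and 0.05 without HT 4.

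Among 18 genes of binding partners and downstream signalling, 0 passed adjustment and 2 had an unadjusted p under 0.05, both lower in HT, against 3.41% of all genes tested, with a median difference of -0.01. Without HT 4 the median was 0.03, and 2 were higher and 2 lower at that level, against 4.69% and 3.69% of all genes tested. *Abi1*, a subunit of the WAVE complex that protocadherin tails recruit to actin, was at 2269, 2486, 2494, 2137 and 2448 in HT and 2820, 2991, 2648, 2639 and 2554 in WT. The groups did not overlap (difference -0.21, SE 0.061, limma adjusted p = 1.00, exact permutation p = 0.0079). That exact p is the smallest possible here and is reached by every gene without overlap, 0.629% of all genes tested. Axin1, the Wnt scaffold bound by *Pcdhgc3*, was at 984, 986, 1015, 1049 and 1000 in HT and 1055, 1242, 1069, 1103 and 1038 in WT. Only HT 4 entered the WT range (difference -0.13, SE 0.058, exact permutation p = 0.016, limma adjusted p = 1.00). *Marcks*, a kinase substrate at the membrane with the highest total value in the list, differed by -0.0066 (SE 0.036), and by -0.016 without HT 4.

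Of 12 protocadherins outside the clusters, 0 had an unadjusted p under 0.05, against 3.41% of all genes tested. Of the 12, 9 were higher in HT, against 46.4% of all genes tested, with a median difference of 0.04. *Pcdh10*, the one with the highest total value, differed by 0.08 (SE 0.078), and by 0.15 without HT 4. Without HT 4, 5 of the 12 had an unadjusted p under 0.05, all higher in HT, against 4.69% of all genes tested, and none passed adjustment (lowest adjusted p = 0.28).

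Of the other genes within 500 kb of the clusters, 35 were tested, and 0 had an unadjusted p under 0.05, against 3.41% of all genes tested. Their median difference was -0.03. Without HT 4, 2 were lower at that level, against 3.69% of all genes tested. Inside the clusters lie *Gm10545* and *Gm10544* in alpha and *Gm26672*, *BC037039*, *Gm38182* and *Pcdhgb8*, annotated as a polymorphic pseudogene, in gamma. All 6 were low: the highest value in any library was 120 (*BC037039*). *Pcdhgb8* was at 32.8 to 59.6 in HT and 42.5 to 67.8 in WT (difference -0.33, SE 0.19). *BC037039* and *Gm10545* are antisense RNAs of the clusters and showed differences of -0.04 (SE 0.14) and 0.47 (SE 0.29).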

How the data were processed

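Per the labels, poly-A RNA of whole brain from 5 HT and 5 WT mice was made into stranded TruSeq libraries. The authors deposited signal values, 1 for each gene in each library. These normalised read counts are gene estimates from Salmon 1.1.0 on GRCm38 with GC-bias correction, divided by DESeq2 1.30.1 size factors (R 4.1.1, versions per the submitters' processing notes). The annotation release is not given in the sources used here. Salmon shares reads of constant exons between isoforms by estimate. Of low values, 16.6% to 36.6% were whole multiples of a read (within 0.1), so whole reads were not recovered and no count test was run. Totals were 27.2 M to 29.03 M per library (M, 1000000).

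Values were taken as log2(value + 1). The 17020 genes with a mean of at least 10 were compared by limma 3.58.1 (trend, robust, two-sided, no covariate, R 4.3.3) with Benjamini-Hochberg adjustment over all of them and a threshold of 0.05. Differences are HT minus WT on this scale, which understates changes of low genes. Exact permutation tests used all 252 assignments. Sums are of values on the linear scale, compared as log2. The workflow was tested on simulated data. Symbols, positions and lengths are from GENCODE M21, which matched 18431 of 18444 genes. Named genes were *Arid1b*, the C-types, in each cluster the 3 highest and the lowest mean, the 5 smallest p, groups without overlap, and leading genes of the lists of regulators, partners, other protocadherins and genes inside the clusters. The genes and lists, including the cell-type marker lists, were chosen with earlier results of these data known.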

Additional observations from a re-analysis of the deposited data

Results flagged for a closer look

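Within groups of 5 libraries, 78 group values of the named genes and sums were checked for 1 library lying far from the rest, by its gap to the nearest library divided by the range of the group. A ratio above 0.71 was found in 6, and chance gives about 1 in 20, or 3.9 here. HT 4 was the library in 3 of them: *Arid1b* (1505 against 2142 to 2372, ratio 0.735), *Pcdhgc5* (310 against 512 to 569, ratio 0.781) and *Pcdh10* (5688 against 7188 to 7736, ratio 0.732). WT 5 was low at *Pcdhac1* (162 against 225 to 242, ratio 0.779) and at *Pcdhgc3* (4524 against 5308 to 5628, ratio 0.7104). WT 4 was high at *Pcdhga10* (800 against 758 to 764, ratio 0.840).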

How the results depend on the processing

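No clustered protocadherin, gene of the locus or gene of the 3 related lists passed adjustment under any of the 19 alternatives. The number of the 56 genes with an unadjusted p under 0.05 was 1, against 3.41% of all genes tested. It became 2 with the same total per library, 0 with quantile normalisation, 5 with sample weights and 2 with the length trend taken out. Leaving out each library gave 0 to 6. The 6 came without HT 4, where 4.69% of all genes tested were higher and 3.69% lower at that level. Shares of all genes under the other settings are not given here, so those counts have no background. Same-numbered HT and WT libraries had deviations with correlations of -0.10 to 0.093, and 4 of 5 were best matched to their own number. Whether replicate numbers mark pairs of mice was not tested, and the main fit used no pairing. With the replicate block, 0 of the 56 had an unadjusted p under 0.05. *Arid1b* passed the threshold with sample weights (difference -0.60), with the length trend taken out (-0.65) and without HT 4 (range over left-out libraries -0.73 to -0.57). The gamma difference of -0.021 became -0.090 as a mean of log2 values. It became -0.089 without *Pcdhgc4*, a setting chosen after seeing the data, and 0.023 (SE 0.034) when HT 4 was also left out. The other sums moved by less than the SD between libraries under every setting, although the alpha sum ran from -0.027 to 0.057 and the sum of all 3 clusters from -0.023 to 0.029 when libraries were left out. No other genes of the beta span were in the table, so adding them was not run. Of 34 named genes, 8 changed direction somewhere, none of them called. With sample weights *Pcdhac2* was at 0.025, *Pcdhgc4* at -0.0044, *Pcdhgc5* at 0.13 and *Pcdhga11* at 0.055. *Pcdhgc5* was at 6.3e-05 with a pseudocount of 5, 0.0055 with quantile normalisation and 0.022 with the length trend taken out, where *Marcks* was at 0.0030. Leaving out libraries gave -0.063 to 0.099 for *Pcdhac1*, -0.11 to 0.058 for *Pcdhac2*, -0.078 to 0.19 for *Pcdhgc4*, -0.057 to 0.17 for *Pcdhgc5*, -0.013 to 0.30 for *Pcdhb2*, -0.11 to 0.071 for *Pcdhga11*, -0.016 to 0.00096 for *Marcks* and -0.12 to 0.016 for *BC037039*. The cause of these changes was not tested.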
